A study of Homo sapiens with 36 samples.

Results

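ADH1A and ADH1C encode class I alcohol dehydrogenases, and ADH5 encodes their broadly expressed class III relative. The 3 genes were followed across 36 expression arrays of ZR-75-1, an established human breast cancer line that carries the estrogen receptor, hybridised to Illumina HumanWG-6 v3 BeadChips. All probes of the 3 genes were taken from the non-normalised signals, which gave 1 probe for each gene, 3 of the 27578 probes with a single gene symbol. All 3 genes passed the filter on low values and were among the 9902 genes tested, ADH1A and ADH1C through the groups in which they were high. ADH1A and ADH1C were chosen by their measured levels with dihydrotestosterone and without it in earlier results of these same arrays, so their levels and differences are given as a description and carry no p-value. Cells in medium with hormone-stripped serum received, at 10 nM each and for 16 h, estradiol with dihydrotestosterone (E2+DHT), dihydrotestosterone alone (DHT, an androgen), E2 with medroxyprogesterone acetate (E2+MPA), medroxyprogesterone acetate alone (MPA, a synthetic progestin), E2 with progesterone (E2+P4), progesterone alone (P4) or estradiol alone (E2). A further group (E2pre+P4) received E2 for 72 h and P4 for 16 h, where the labels place the P4 at the end of the 72 h and the study's methods place it after them. The last group received vehicle, which the study's methods give as ethanol. Each of the 9 groups held 4 arrays, with 1 cell line as the only model. The labels do not state whether the 4 came from separate cultures, so the p-values given for other genes measure only the spread between these samples, which may be technical.

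Class I alcohol dehydrogenases are zinc enzymes of the cytosol that oxidise ethanol to acetaldehyde and retinol to retinaldehyde with NAD as the acceptor of electrons. They are most abundant in liver, are also made in gut, kidney and fat, and act as dimers in which the chains of ADH1A, ADH1B and ADH1C can mix. ADH5 works poorly on ethanol, oxidises formaldehyde bound to glutathione and reduces S-nitrosoglutathione, and is made in nearly every tissue. Androgens and progestins act through closely related nuclear receptors that bind the same kind of DNA element, and MPA is known to bind the androgen receptor besides the progesterone receptor.

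The class I genes lie side by side and share much of their upstream sequence, whereas ADH5 does not, and the windows of the 3 genes followed here are shown so that they can be compared. Each is the 250 bases before the RefSeq start of the gene, read 5′ to 3′ on the minus strand of chromosome 4 in build GRCh38.p14. They span chr4:99352747-99352996 for ADH1C, chr4:99290986-99291235 for ADH1A and chr4:99088789-99089038 for ADH5. Capitals mark every match to the motifs searched on both strands.
ADH1C: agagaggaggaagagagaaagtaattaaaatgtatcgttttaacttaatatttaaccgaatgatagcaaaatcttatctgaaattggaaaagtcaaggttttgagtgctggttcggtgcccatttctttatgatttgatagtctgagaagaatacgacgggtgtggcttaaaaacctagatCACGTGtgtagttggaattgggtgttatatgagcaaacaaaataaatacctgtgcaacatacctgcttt
ADH1A: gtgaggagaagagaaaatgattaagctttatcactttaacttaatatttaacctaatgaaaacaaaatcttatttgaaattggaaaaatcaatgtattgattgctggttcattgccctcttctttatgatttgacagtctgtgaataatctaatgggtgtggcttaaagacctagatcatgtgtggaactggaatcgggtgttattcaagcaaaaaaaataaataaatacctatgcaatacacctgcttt
ADH5: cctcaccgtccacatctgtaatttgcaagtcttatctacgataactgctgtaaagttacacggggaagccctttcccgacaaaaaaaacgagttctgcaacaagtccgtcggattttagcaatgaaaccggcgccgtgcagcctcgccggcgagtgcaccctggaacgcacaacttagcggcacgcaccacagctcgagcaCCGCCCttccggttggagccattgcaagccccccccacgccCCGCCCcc
The ADH1C and ADH1A windows were identical at 207 of 254 aligned positions (81.5%), against 43.2% for ADH1C with ADH5 and 42.2% for ADH1A with ADH5. The window of ADH1B, the third class I gene, whose probe was detected on 0 of 36 arrays, was as much alike, at 81.5% with ADH1C and 82.6% with ADH1A. The ADH5 window held 21 CpG pairs and 58.0% G or C, whereas ADH1C held 6 pairs and 35.6% and ADH1A held 1 pair and 31.6%. Over the 35114 windows of the same length in RefSeq, the median was 11 CpG pairs and 58.0% G or C. The palindromic E-box CACGTG occurred once in the ADH1C window, starting at position -69, and at the same position in the ADH1B window, but not in the ADH1A window, and 6.35% of all windows held it. The GC box GGGCGG occurred at 2 places in ADH5 (on the other strand, CCGCCC) and in neither class I window, with 42.6% of all windows holding it. None of the 3 windows held the androgen and progesterone half-site AGAACA (12.4% of windows), the full element of AGAACA and its inverted copy 3 bases apart, which contains it (0.00285%), the estrogen response element of GGTCA and its inverted copy 3 bases apart (0.0399%) or the TATA box TATAAA (10.7%).

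Between 12191 and 14806 of 48803 probes were detected on an array (detection p under 0.01). The lowest level of a detected probe lay between 6.58 and 7.56 (log2) across the arrays, with a median of 7.08, and a probe below it has only a bound. All 8 luminal breast epithelial markers, including ESR1, GATA3 and KRT8, were detected on all 36 arrays. Of 8 hepatocyte markers, 6 (ALB, APOA1, APOA2, TTR, CYP3A4 and HP) were detected on 0 arrays, and 4 of 5 adipocyte markers were likewise detected on 0 arrays, the fifth, LEP, being detected on 27. The summed adipocyte markers ran from 273.671 to 623.602 with DHT and from 283.111 to 592.866 with vehicle. The summed hepatocyte markers, which SERPINA1 and FGB make up, ran from 3194.54 to 4623 with DHT and from 2460.5 to 4621.52 with vehicle. Of 5 fibroblast markers 4 were detected on 0 arrays, with COL1A1 detected on all 36, and of 4 leukocyte markers 3. The arrays labelled E2 replicate 2 and E2pre+P4 replicate 2 each carried levels of the other's group, as for SERPINA3 at 12.42 against 9.30 to 9.52 on the other E2 arrays. ADH1C stood at 5.54 on the doubted E2 array and at 5.21 to 5.77 on the others, and ADH1A at 5.36 and at 5.25 to 6.06. On the doubted E2pre+P4 array ADH1C stood at 6.17 and on the others at 5.63 to 6.40, and ADH1A stood at 5.83 and at 5.33 to 6.43, so that neither array fell outside its labelled group for either gene.

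ADH1C was high on every array that had received DHT and near the detection limit or below it elsewhere. Its normalised level was 8.87, 8.23, 8.48 and 8.35 on the 4 DHT arrays and 5.33, 5.91, 6.25 and 5.79 on the 4 vehicle arrays. The probe was detected on 4 of 4 DHT arrays and 0 of 4 vehicle arrays, and the groups did not overlap, as was the case for 2.09% of all genes in this direction. In the scanner's own signal the DHT arrays gave 612.5, 320.1, 479.1 and 393.2, and the vehicle arrays gave 115.9, 153.7, 244.1 and 187. ADH1C averaged 8.48 ± 0.28 with DHT and 5.82 ± 0.38 with vehicle (SD, n = 4 each), a difference of 2.66 ± 0.24 on the log2 scale (SE of the model). Since vehicle lay below detection, the fold was taken against the detection level, which made ADH1C at least 2.70-fold higher with DHT. Lower bounds of this kind set the mean of the brighter group over the mean detection level of the dimmer one. They do not take in the spread between arrays, so they are not limits of a confidence interval. The sum of the endothelial marker list was higher with DHT as well: its 3 summed markers ran from 405.134 to 615.631 with DHT and from 379.862 to 533.196 with E2+DHT, against 190.4 to 260.264 with E2 and 174.705 to 258.213 with vehicle. Of the 3, CDH5 was detected on 0 arrays, PECAM1 on 1 and VWF on 9 of 36, so the sum is not a reading of endothelial cells in this cell line. Why the sum was higher was not tested.

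ADH1C was also high when DHT was given with E2. ADH1C stood at 8.56, 7.74, 8.08 and 7.89 on the E2+DHT arrays and at 5.65, 5.54, 5.21 and 5.77 on the E2 arrays. It was detected on 4 of 4 E2+DHT arrays and 0 of 4 E2 arrays, with no overlap, which 1.48% of all genes showed in this direction. The difference was 2.53 ± 0.24, at least 1.80-fold, and it was 2.52 without the 2 arrays in doubt. Against vehicle, E2+DHT was higher by 2.25 ± 0.24, at least 2.02-fold, again with no overlap (3.24% of all genes). E2+DHT differed from DHT alone by -0.42 (95% interval -0.91 to 0.08), and their arrays overlapped.

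**Figure D1:**
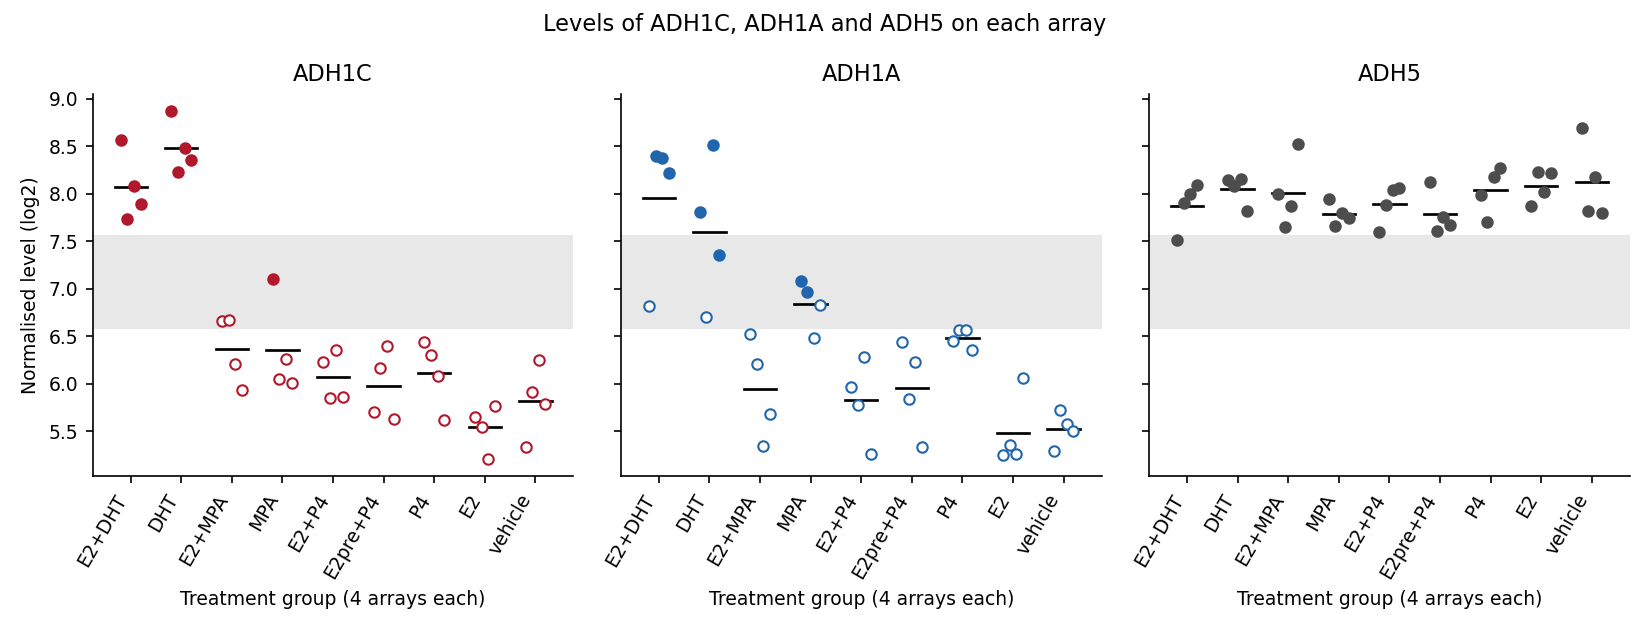
Normalised level (log2) of ADH1C, ADH1A and ADH5 on each array of the 9 treatment groups, with filled points for arrays on which the probe was detected, open points for arrays on which it was not, a bar for the group mean and a grey band for the range of the detection level (6.58 to 7.56). ADH1C is detected on all 8 arrays with DHT, ADH1A on 6 of these 8, and ADH5 on all 36 arrays.

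With the progestins ADH1C stayed near or below detection. It stood at 7.10, 6.05, 6.26 and 6.01 on the MPA arrays, of which only replicate 1 was detected, and the difference from vehicle was 0.54 (95% interval 0.04 to 1.03) with overlapping arrays. The levels were 6.44, 6.30, 6.08 and 5.62 with P4, all below detection, and P4 differed from vehicle by 0.29 (95% interval -0.21 to 0.79). With E2 present, ADH1C stood at 6.66, 6.67, 6.21 and 5.93 on the E2+MPA arrays, 0.83 above E2 and with no overlap (1.45% of all genes). It averaged 6.07 ± 0.26 with E2+P4 (SD, n = 4), 0.53 above E2 and with no overlap (0.364% of all genes). Leaving out 1 array moved this difference between 0.42 and 0.60. The shares of all genes against E2 were counted with the E2 array in doubt kept. Both groups lay below detection in each of these cotreatments, so that no fold is given. E2pre+P4 averaged 5.97 and differed from vehicle by 0.15 (95% interval -0.34 to 0.65), and E2 alone differed from vehicle by -0.28 (95% interval -0.78 to 0.22). In the order of the 9 group means, DHT and E2+DHT came first, the step of 1.70 from E2+DHT down to E2+MPA was the only one between neighbours whose arrays did not overlap, and the other 7 groups followed each other by at most 0.28.

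ADH1A was also highest with DHT, but with more spread between arrays. It stood at 7.80, 6.70, 8.52 and 7.36 on the DHT arrays and at 5.29, 5.73, 5.57 and 5.50 on the vehicle arrays. The probe was detected on 3 of 4 DHT arrays, with replicate 2 below detection, and on 0 of 4 vehicle arrays. The groups did not overlap, as was the case for 2.09% of all genes in this direction. The scanner signal was 370, 197.2, 486.7 and 262.2 with DHT and 114.3, 145.5, 192.9 and 170.6 with vehicle, so that before normalisation the lowest DHT array lay just above the highest vehicle array. The means were 7.59 ± 0.76 with DHT and 5.52 ± 0.18 with vehicle (SD, n = 4 each), a difference of 2.07 ± 0.33 and at least 1.46-fold. On the E2+DHT arrays ADH1A stood at 6.82, 8.39, 8.37 and 8.21, with replicate 1 as the low and undetected array, and on the E2 arrays it stood between 5.25 and 6.06 with 0 of 4 detected. E2+DHT exceeded E2 by 2.47 ± 0.33, at least 1.66-fold, and by 2.42 without the 2 arrays in doubt, and it exceeded vehicle by 2.43, at least 1.86-fold. E2+DHT differed from DHT by 0.36 (95% interval -0.31 to 1.02), where ADH1C differed by -0.42.

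With the progestins ADH1A was detected only on 2 arrays, both of MPA alone. It stood at 7.08, 6.97, 6.49 and 6.82 on the MPA arrays, detected on replicates 1 and 2, and all of them lay above all vehicle arrays, as 4.34% of genes did. The difference of MPA from vehicle was 1.31 ± 0.33, but the mean of the MPA arrays did not exceed the detection level of the vehicle arrays, so that no lower bound above 1 could be given. P4 gave 6.45, 6.56, 6.57 and 6.36, the tightest of the groups, 0.96 above vehicle with no overlap (6.34% of all genes), and was detected on 0 of 4 arrays. With E2 present, the differences were 0.46 (95% interval -0.21 to 1.13) for E2+MPA against E2 and 0.34 (95% interval -0.33 to 1.01) for E2+P4 against E2, with overlapping arrays and all of these groups below detection, so that their sizes cannot be ranked. E2+MPA ran from 5.35 to 6.52, E2+P4 from 5.26 to 6.28 and E2pre+P4 from 5.33 to 6.43, all below detection. E2 differed from vehicle by -0.04 (95% interval -0.71 to 0.63). Between neighbours in the order of the group means of ADH1A, from E2+DHT through DHT, MPA, P4, E2pre+P4, E2+MPA, E2+P4 and vehicle to E2, the arrays overlapped at every step, and the groups below detection have no order among themselves.

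DHT, MPA and P4 are steroids given here at the same dose and for the same time. DHT is the reduced form of testosterone, and MPA is P4 with a methyl and an acetoxy group added. ADH1C was 2.13 ± 0.24 higher with DHT than with MPA, without overlap (2.78% of all genes), and 2.37 ± 0.24 higher with DHT than with P4, at least 2.71-fold and without overlap (5.14% of all genes). ADH1A was 0.76 ± 0.33 higher with DHT than with MPA (95% interval 0.09 to 1.42), with overlapping arrays, and this became 0.45 without DHT replicate 3. It was 1.11 ± 0.33 higher with DHT than with P4, at least 1.46-fold and without overlap (5.14% of all genes). MPA and P4 overlapped for both genes, with a difference of 0.25 (95% interval -0.25 to 0.74) for ADH1C and of 0.36 (95% interval -0.31 to 1.02) for ADH1A. With E2 present, E2+DHT exceeded E2+MPA by 1.70 for ADH1C, at least 1.93-fold, and by 2.01 for ADH1A, at least 1.78-fold, without overlap in either (1.16% of all genes). It exceeded E2+P4 by 2.00 for ADH1C, at least 1.99-fold, and by 2.13 for ADH1A, at least 1.83-fold, again without overlap (2.44% of all genes).

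The change that a steroid made with E2 minus the change it made without E2 had a 95% interval that included 0 for both genes and all 3 steroids, and for MPA and P4 it rested mostly on levels below detection. For DHT it was -0.14 ± 0.34 for ADH1C and 0.40 ± 0.46 for ADH1A, with the E2 and vehicle levels in it below detection for both genes. For MPA it was 0.29 ± 0.34 for ADH1C and -0.86 ± 0.46 for ADH1A (95% interval -1.80 to 0.09). For P4 it was 0.24 ± 0.34 for ADH1C and -0.62 ± 0.46 for ADH1A. Around their own group means, the array-to-array deviations of ADH1A and ADH1C correlated at r = 0.23 over 36 arrays, which share normalisation. For instance, MPA replicate 1 was the highest MPA array for both genes, whereas E2+DHT replicate 1 was the lowest for ADH1A and the highest for ADH1C.

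**Figure D2:**
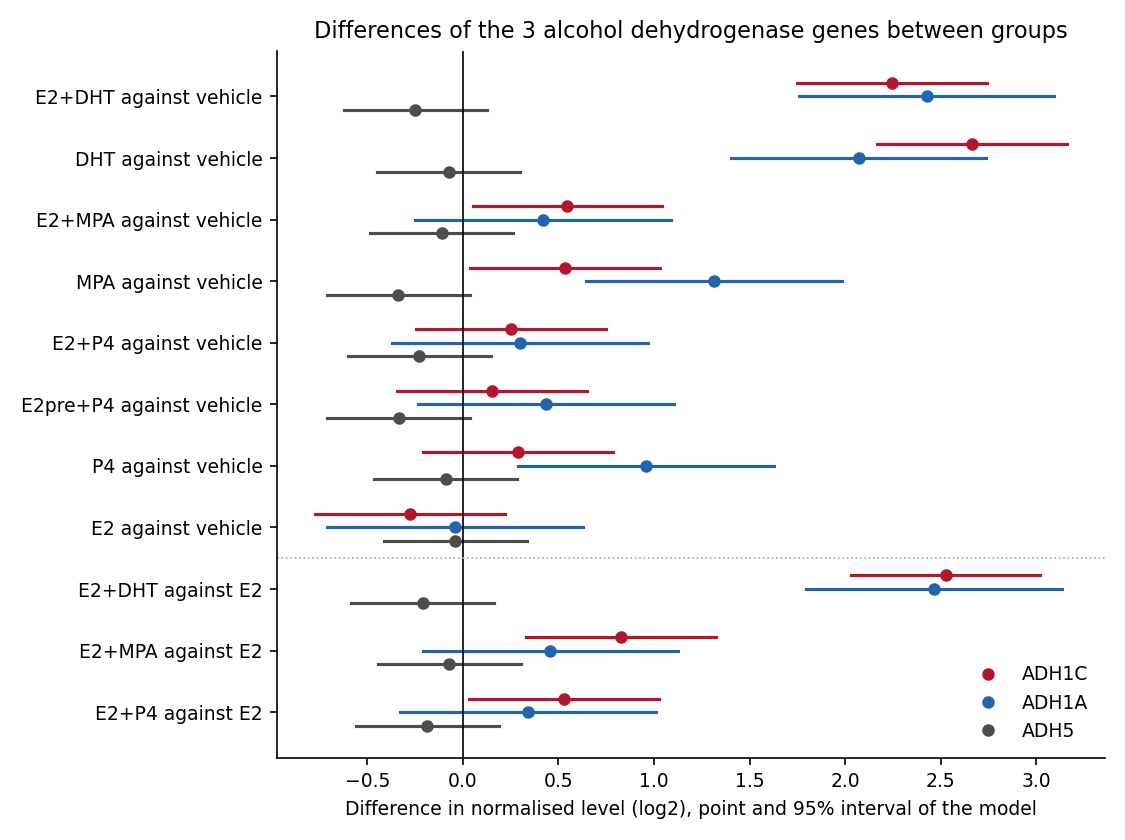
Differences in normalised level (log2) of ADH1C, ADH1A and ADH5, with 95% intervals of the model, for 8 treatments against vehicle and, below the dotted line, 3 cotreatments against E2. The DHT comparisons of ADH1C and ADH1A lie between 2.07 and 2.66, and all 11 intervals of ADH5 include 0.

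ADH5 was detected on all 36 arrays and passed the test in none of the comparisons. It stood at 8.15, 8.08, 8.15 and 7.82 on the DHT arrays and at 8.69, 7.82, 8.18 and 7.80 on the vehicle arrays, with wide overlap. Group means ran from 7.79 with MPA to 8.12 with vehicle, and every neighbouring pair of groups overlapped. Against vehicle the 8 differences ran from -0.34 to -0.04, and 0 of 8 passed limma's test (lowest adjusted p = 0.212, for MPA, and 0 at an unadjusted p under 0.05). DHT differed from vehicle by -0.07 (95% interval -0.45 to 0.30, adjusted p = 0.916), beside 2.4% of all genes called in that comparison. E2+DHT differed from E2 by -0.21 (95% interval -0.58 to 0.16, adjusted p = 0.788), beside 0.818% called. DHT differed from MPA by 0.26 (95% interval -0.11 to 0.64) and from P4 by 0.01 (95% interval -0.36 to 0.39), and MPA differed from P4 by -0.25 (95% interval -0.62 to 0.13). Over all 21 comparisons, 0 passed and 0 had an unadjusted p under 0.05.

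The other alcohol dehydrogenases of the same cluster were not detected. ADH1B, the third class I gene, ADH4, a class II enzyme of liver with 2 probes, ADH6 and ADH7, an enzyme of stomach lining that oxidises retinol, were detected on 0 of 36 arrays, in the DHT groups too. The highest level of the ADH1B probe on any array was 5.39, against a lowest detected level of 6.58 on any array. The class I genes are close copies of each other, and whether the probes of ADH1A and ADH1C bind each other's transcript was not tested, since the probe sequences were not used here.

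None of the genes around the cluster passed the test with DHT. In RefSeq order on chromosome 4 the cluster runs ADH5, ADH4, ADH6, ADH1A, ADH1B, ADH1C and ADH7. Of the 6 genes on each side, 7 were detected often enough to be tested: RAP1GDS1, TSPAN5, EIF4E and METAP1 before ADH5, and TRMT10A, DAPP1 and LAMTOR3 after ADH7. With DHT they differed from vehicle by -0.22 (METAP1, a methionine aminopeptidase) to 0.50 (LAMTOR3, a scaffold of lysosomal signalling), and 0 of 7 passed limma's test (lowest adjusted p = 0.464, and 0 at an unadjusted p under 0.05). Since 2.4% of all genes passed in that comparison, 0 of 7 does not set the neighbours apart. With MPA the neighbours differed from vehicle by -0.36 to 1.38 and with P4 by -0.37 to 1.81. In each, 0 of 7 were called, where limma called 1.96% of all genes with MPA and 0% with P4. At an unadjusted p under 0.05 in limma's test there were 3 of 7 in each. The share of all genes at that threshold was not counted, so 3 of 7 does not set the neighbours apart. The value of 1.38 with MPA was that of EIF4E, which had an SE of 0.697 and was detected on only 17 arrays.

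**Figure D3:**
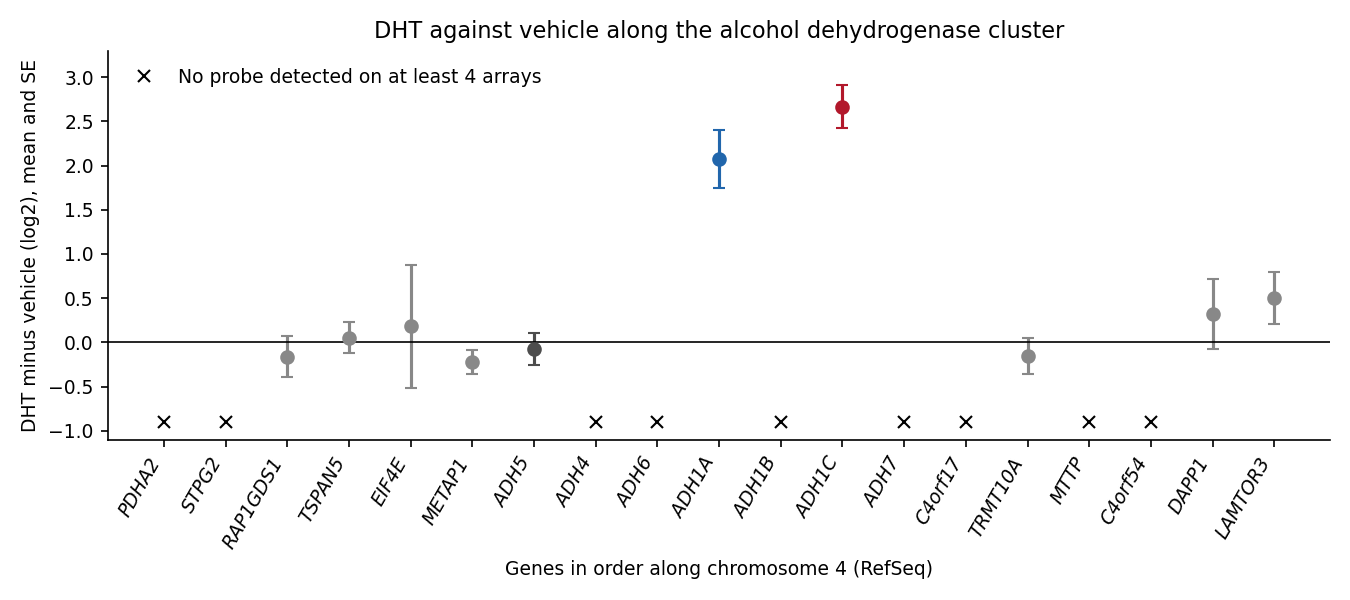
Difference between DHT and vehicle (log2, mean and SE of the model) for the genes of the alcohol dehydrogenase cluster and 6 genes on each side, in their order along chromosome 4, with crosses for genes without a probe detected on at least 4 arrays. ADH1A at 2.07 and ADH1C at 2.66 stand apart from the 8 other tested genes, which lie between -0.22 and 0.50.

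Other steroid-responsive genes of these cells put the class I pattern in context. UGT2B7, UGT2B10, UGT2B11 and UGT2B28 belong to the glucuronosyltransferases, which conjugate steroids for removal, and they are near copies whose probes may overlap. These genes and FKBP5 were chosen with earlier results of these data known, so their differences are a description and carry no p-value. UGT2B10 passed the filter on low values only through the arrays with DHT. All 4 were detected on every DHT array, whereas on the vehicle arrays UGT2B7 was detected on 1 of 4 and the others on 0 of 4. The DHT arrays lay at least 4.43-fold (UGT2B10), at least 31.9-fold (UGT2B11) and at least 20.2-fold (UGT2B28) above vehicle, and UGT2B7 was higher by 5.67 ± 0.25 on the log2 scale (SE of the model). With MPA, UGT2B11 was at least 5.31-fold and UGT2B28 at least 2.98-fold higher than with vehicle, UGT2B7 was higher by 3.03, and UGT2B10 was below detection in both groups. DHT exceeded MPA by 2.64 for UGT2B7, 2.59 for UGT2B11 and 2.76 for UGT2B28, each detected on all arrays of both groups, and UGT2B10 was at least 4.52-fold higher with DHT. FKBP5, a co-chaperone of steroid receptors, rose by 1.87 ± 0.32 with DHT and by 1.68 ± 0.32 with MPA. For FKBP5, DHT and MPA differed by 0.18 (95% interval -0.47 to 0.84). The SE and interval of FKBP5 take in the 2 arrays in doubt. The SD of FKBP5 was 0.91 with E2 and 1.01 with E2pre+P4, against 0.05 with DHT, 0.15 with MPA and 0.10 with vehicle. With P4 alone UGT2B11 was detected on 1 of 4 arrays and the other UGT2B genes on 0 of 4. FKBP5 averaged 9.74 ± 0.10 with P4 and 9.57 ± 0.10 with vehicle (SD, n = 4 each). Since limma called 0% of all genes with P4, its test sets no gene apart there.

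**Figure D4:**
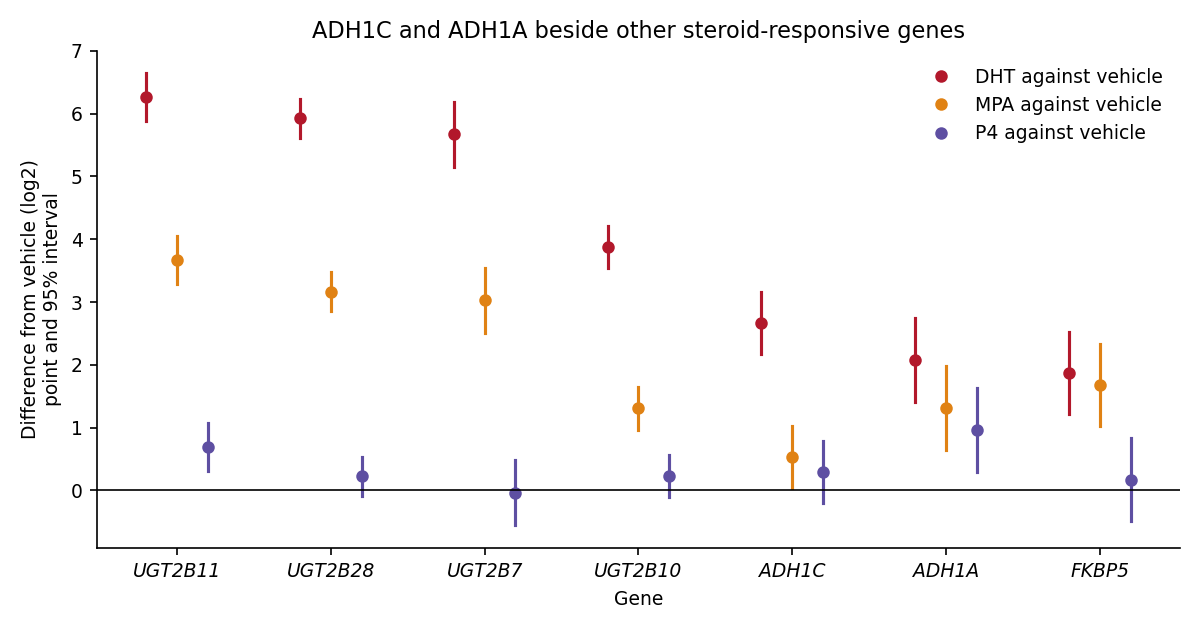
Differences from vehicle (log2, with 95% intervals of the model) with DHT, MPA and P4 for the UGT2B genes, ADH1C, ADH1A and FKBP5. The DHT and MPA intervals are apart for the 4 UGT2B genes and ADH1C (2.66 with DHT, 0.54 with MPA). They overlap for ADH1A (2.07 with DHT, 1.31 with MPA) and FKBP5. Since both intervals share the vehicle arrays, their overlap does not compare DHT with MPA directly. The direct difference for ADH1A was 0.76 (95% interval 0.09 to 1.42), with overlapping arrays. Apart from FKBP5 the vehicle levels lay mostly below detection.

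Across the 9 group means, the genes whose pattern was most like that of ADH1C were PEA15 (Pearson r = 0.981), UGT2B10 (0.980), PEX10 (0.967), TMEM150A (0.962), PRPS1 (0.958) and IQGAP2 (0.947), out of 9901 other genes. PEA15 is a small adaptor of kinase signalling, PEX10 is needed for import into peroxisomes, PRPS1 makes the ribose donor of nucleotides and IQGAP2 is a scaffold of the cytoskeleton. Their sizes differed from that of ADH1C: PEA15 averaged 12.79 with DHT and 12.14 with vehicle, and PEX10 averaged 13.09 with DHT and 11.95 with vehicle. ADH1A ranked 15th for ADH1C, with r = 0.917. The genes most like ADH1A were TOE1 (0.972), PRPS1 (0.962), GPCPD1 (0.949), TRIM68 (0.946), CRYBG1 (0.932) and ADH1C (0.917). ADH5 correlated with ADH1C at -0.08 and with ADH1A at -0.29. These correlations rest on 9 means that share their arrays, and are given without a test. Outside the DHT groups, ADH1C was detected on only 1 array and ADH1A on only 2, all with MPA alone. The correlations with these 2 genes therefore rest mostly on the levels with DHT, by which both were chosen.

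The enzymes and carriers that work beside the class I genes were compared in the same fit. A list of 61 other genes of alcohol, aldehyde, retinoid and formaldehyde handling had 57 on the array and 36 detected often enough to be tested, ADH5 among them. With DHT, 1 of the 36 was higher than with vehicle, 1 was lower and 34 did not pass, where 1.1% of all genes were called higher and 1.3% lower. The median difference of the 36 was -0.08, and that of all genes was -0.03. The one that rose, ADHFE1, is a mitochondrial enzyme that oxidises 4-hydroxybutyrate and belongs to another, iron-dependent family of alcohol dehydrogenases. ADHFE1 stood at 8.29, 7.91, 7.69 and 8.27 on the DHT arrays and at 7.60, 6.91, 6.90 and 6.89 on the vehicle arrays, of which 2 were detected. The difference was 0.97 ± 0.21 (adjusted p = 0.00726), the groups did not overlap (2.09% of all genes), and DHT also exceeded P4 by 1.16 (adjusted p = 0.000978, beside 1.17% of all genes called higher). The ADHFE1 call was lost with sets of 6 consecutive arrays as a block (0.86, adjusted p = 0.0643), and a second ADHFE1 probe was detected on 0 arrays. The one that fell, BCO1, which splits beta-carotene into retinaldehyde, stood at 6.88, 5.98, 6.70 and 7.43 with DHT, detected on 1 of 4 arrays, and at 8.30, 7.61, 7.44 and 7.65 with vehicle, detected on 4 of 4. Its difference of -1.0 ± 0.24 (adjusted p = 0.0183) lost its call without vehicle replicate 1 (-0.82, adjusted p = 0.122), without DHT replicate 2 (-0.74, adjusted p = 0.108) and with the same block of 6 arrays (-0.91, adjusted p = 0.123).

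Of the retinoid genes, DHRS3 passed the test against vehicle in 4 groups, all given E2. DHRS3, which reduces retinaldehyde back to retinol, ran from 8.52 to 9.27 on the E2+DHT arrays, from 9.38 to 9.58 with E2+MPA, from 8.36 to 9.66 with E2pre+P4, from 8.81 to 9.92 with E2 and from 10.24 to 10.71 with vehicle. These 4 groups lay below vehicle, by -1.54 with E2+DHT (adjusted p = 4.1e-06), by -1.03 with E2+MPA (0.00191), by -1.43 with E2pre+P4 (2.1e-05) and by -1.03 with E2 (0.00276), and all 4 calls stood without the 2 arrays in doubt. E2+P4, at 9.70 to 9.84, and MPA alone, at 9.78 to 10.08, also averaged below vehicle without passing (-0.71, adjusted p = 0.0693, and -0.55, adjusted p = 0.118), and E2+P4 passed without the 2 arrays in doubt. DHRS3 was also lower with E2+DHT than with DHT alone (-1.03, adjusted p = 0.00335, beside 0.252% of all genes called lower). CRABP2, which carries retinoic acid to its receptor, fell by 0.47 with E2+DHT (adjusted p = 0.0144) and by 0.43 with E2+MPA (adjusted p = 0.0365), and both calls were lost without single arrays. With E2+DHT this was so without vehicle replicate 1 (adjusted p = 0.0694) or E2+DHT replicate 4 (0.104), and with E2+MPA without vehicle replicate 1, 3 or 4 or E2+MPA replicate 3 or 4 (highest adjusted p = 0.21).

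Few genes of the ethanol and formaldehyde side passed. ACSS1, which turns acetate into acetyl-CoA in mitochondria, was at least 1.13-fold lower with E2+DHT than with vehicle (adjusted p = 0.0185), detected on 0 of 4 and 2 of 4 arrays, a call lost without vehicle replicate 4 (adjusted p = 0.0741) or E2+DHT replicate 3 (0.0776). With E2pre+P4, 1 of the 36 genes rose and 4 fell against vehicle, beside 2.35% and 3.83% of all genes. ALDH2, the mitochondrial enzyme that clears acetaldehyde, differed by -0.49 (adjusted p = 0.00715), CAT, catalase, by -0.68 (0.00674) and TXNRD1, a thioredoxin reductase, by -0.61 (0.0411). ALDH2 lost its call without E2pre+P4 replicate 1 (adjusted p = 0.0587) and CAT without vehicle replicate 1 (0.0643). TXNRD1 lost its call without the 2 arrays in doubt (-0.58, adjusted p = 0.1), and without vehicle replicate 1, 3 or 4 or E2pre+P4 replicate 1, 2 or 3. RDH16, a retinol dehydrogenase, was at least 1.15-fold higher (adjusted p = 0.0495), and its call was lost without vehicle replicate 1, 3 or 4 or E2pre+P4 replicate 1, 3 or 4. On the doubted E2pre+P4 replicate 2 RDH16 stood at 6.09, with the others at 7.31 to 8.01. Without the 2 arrays in doubt its log2 difference went from 1.08 to 1.47 (adjusted p = 6.6e-05 by limma's test), with vehicle below detection. Against vehicle, 3 genes were called with E2+DHT, 2 with E2+MPA and 1 with E2, all lower, beside 2.7%, 1.93% and 0.424% of all genes called lower. By limma's test 0 were called with MPA (1.96% of all genes in either direction), E2+P4 (1.92%) and P4 (0%). At an unadjusted p under 0.05 these last numbers were 9, 8 and 6 of 36. The share of all genes at that threshold was not counted, so these numbers do not set the list apart. The median difference of all genes was itself -0.12 with MPA and -0.12 with P4. Against E2, 0 of 36 passed limma's test with E2+DHT, E2+MPA or E2+P4 (0.818%, 0.889% and 0% of all genes). At an unadjusted p under 0.05 there were 7, 3 and 0, again without a share of all genes to set beside them.

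**Figure D5:**
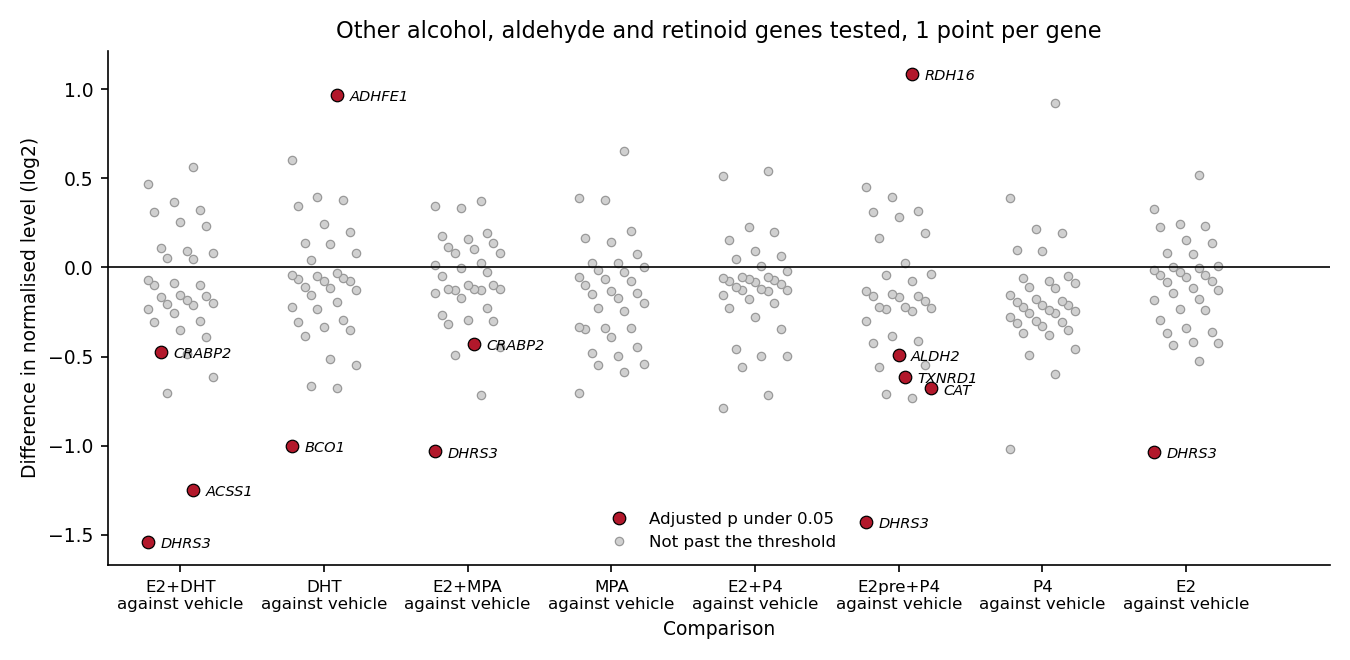
Differences from vehicle (log2) of the 35 listed genes other than ADH5 that were tested, 1 point per gene in each of 8 comparisons, with red points and names for an adjusted p under 0.05. ADHFE1 at 0.97 and BCO1 at -1.0 are named with DHT, and DHRS3 is named in 4 comparisons with E2, between -1.54 and -1.03.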

How the data were processed

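Signal intensities of 36 arrays were deposited by the authors on a linear scale, not yet background corrected, and the labels name limma as a tool. The deposited detection p-value column rose with the signal and was read as 1 minus the p-value. A second deposited intensity table, a straight-line change of these signals with up to 43.7% of values below 0, was an alternative. The authors' own variance stabilisation and batch removal were not run here. Signals were corrected, quantile normalised and taken to log2 (neqc, offset 16, limma 3.58.1, R 4.3.3). Probes detected (p under 0.01) in 4 arrays or more were kept and the brightest probe of a gene was used, which left 9902 genes. A model with 9 group means gave 21 comparisons and 3 interactions with Benjamini-Hochberg adjustment (threshold 0.05). Members, lists and tests were chosen with earlier results of these data known. Named were the members, listed genes called, other alcohol dehydrogenases, neighbours, UGT2B genes and FKBP5, and 6 genes of most similar pattern. Alternatives changed background, normalisation, filter, probe choice, blocks and arrays. Signal over background and 4 arrays a group limit precision, with a median half-width of 0.400 (log2) for a 95% interval. The script was tested on simulated data. Upstream windows come from RefSeq (GRCh38.p14), which matched all 3 members.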

Additional observations from a re-analysis of the deposited data

Results flagged for a closer look

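Among 234 sets of 4 arrays (26 named genes in 9 groups), 12 held an array that stood apart from the other 3 by more than Dixon's 95% critical share of the whole range, which chance gives in about 1 of 20 sets. For ADH1A these were E2+DHT replicate 1, at 6.82 with the others at 8.21 to 8.39, and E2 replicate 4, at 6.06 with the others at 5.25 to 5.36. Without E2+DHT replicate 1, ADH1A in E2+DHT exceeded E2 by 2.84. ADH1C and ADH5 had no such array. ADHFE1 stood at 7.72 on E2+P4 replicate 4 with the others at 7.13 to 7.18, and at 7.60 on vehicle replicate 1 with the others at 6.89 to 6.91. ALDH2 stood at 12.23 on E2+MPA replicate 4 (others 11.83 to 11.85) and at 12.32 on vehicle replicate 2 (others 12.20 to 12.22). FKBP5 stood at 9.35 on the doubted E2pre+P4 replicate 2 (others 11.20 to 11.48), and TMEM150A at 11.25 on the same array (others 11.13 to 11.14). Of the genes whose pattern was like that of the class I genes, CRYBG1 stood at 8.46 on E2+P4 replicate 4 (others 8.86 to 8.88), GPCPD1 at 9.06 on MPA replicate 2 (others 8.64 to 8.67), IQGAP2 at 10.02 on DHT replicate 2 (others 9.36 to 9.46) and TOE1 at 7.88 on E2+DHT replicate 1 (others 8.49 to 8.60).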

How the results depend on the processing

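ADH1C and ADH1A stayed higher with DHT than without it in all 18 alternatives of each comparison with vehicle or E2, and only the size moved. Without background correction the differences shrank, for ADH1C to 1.42 (DHT against vehicle), 1.14 (E2+DHT against vehicle), 1.28 (E2+DHT against E2), 0.39 (E2+MPA against E2), 1.18 (DHT against MPA) and 0.89 (E2+DHT against E2+MPA), and for ADH1A to 1.02 (DHT against vehicle), 0.59 (MPA against vehicle), 1.23 (E2+DHT against vehicle), 1.28 (E2+DHT against E2) and 1.04 (E2+DHT against E2+MPA). From the value table they grew, for ADH1C to 3.04 (DHT against vehicle), 2.62 (E2+DHT against vehicle), 3.11 (E2+DHT against E2) and 1.29 (E2+MPA against E2), and for ADH1A to 2.70 (DHT against vehicle), 1.92 (MPA against vehicle) and 3.07 (E2+DHT against vehicle). With an offset of 50 they were 2.11, 1.73 and 1.91 for ADH1C (DHT against vehicle, E2+DHT against vehicle and E2+DHT against E2) and 0.89, 1.83 and 1.85 for ADH1A (MPA against vehicle, E2+DHT against vehicle and E2+DHT against E2). With sets of 6 consecutive arrays as a block, ADH1A gave 1.04 (MPA against vehicle) and 1.39 (DHT against MPA). Among differences between groups below detection, ADH1A with P4 against vehicle (0.96) ran from 0.44 without background correction to 1.54 from the value table, and ADH1C with E2+P4 against E2 (0.53) from 0.26 to 0.90 under the same settings. The alternatives for DHT against MPA and for E2+DHT against E2+MPA were chosen after seeing the data. Leaving out 1 array moved ADH1C with DHT against vehicle between 2.5 and 2.81 and ADH1A between 1.76 and 2.37.

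ADH5 was called in 0 of 8 comparisons with vehicle under every alternative and without any 1 array. Of the listed genes, 1 (MTHFD1) was called with DHT against vehicle under the block of 6 arrays. With E2+P4 against vehicle, 1 was called without background correction (DHRS3), 1 with cyclic loess (CAT) and 1 without the 2 arrays in doubt (DHRS3). Cyclic loess gave 5 with E2+DHT against vehicle, and no filter gave 3 with E2pre+P4 against vehicle. With E2+DHT against E2, 1 was called with the replicate block (CRABP2) and 1 without the 2 arrays in doubt (DHRS3). Leaving out 1 array gave 0 to 3 calls with P4, 0 to 5 with MPA, 1 to 3 with DHT, 0 to 2 with E2+P4, 1 to 2 with E2+MPA, 2 to 4 with E2+DHT and 2 to 8 with E2pre+P4 against vehicle, and 0 to 1 with E2+MPA against E2. The highest of these numbers with P4, MPA, DHT, E2+P4, E2+DHT and E2pre+P4 came without vehicle replicate 2. The causes were not tested. Replicate numbers did not pair the arrays: same-number correlations ran from -0.867 to 0.772, and 10 of 36 arrays correlated best with their own number. With the replicate block, 233 genes were called with DHT against vehicle, against 238 without it, and ADH1C kept its difference of 2.66. Levels near or below detection limit ADH1A and ADH1C outside the DHT groups.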
